A study of Epimedium pubescens with 27 samples.

Results

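The comparison described here set leaves of Epimedium pubescens at S3, 48 days after treatment (DAT), against leaves at S1, 24 DAT, in plants that both received medium nitrogen (MN, 7.5 mM nitrate). Its members were the 3 MN S3 and the 3 MN S1 libraries, chosen by their labels from 27 libraries in the series, and every gene in them was considered. The plants were seedlings grown in river sand and perlite, no transgene or mutation is named, and the labels give no difference between the groups other than the time under treatment. The series also holds LN (no nitrate) and HN (the highest dose) plants and an intermediate stage, S2, at 36 DAT. The MN S2 libraries, and the S3 and S1 libraries of LN and HN, were used here for side-by-side values. The age of the leaves that gave RNA, their position, and whether a library pooled plants are not stated in the labels or the methods.

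E. pubescens is a perennial herb of the barberry family whose leaves are used in Chinese medicine for their prenylated, glycosylated flavonols of the icariin type. Flavonoids start from phenylalanine, pass through chalcone synthase, and then branch to flavonols, to anthocyanins or to flavan-3-ols, the units of condensed tannins. Nitrate that reaches a leaf is reduced to nitrite and then to ammonium, and ammonium enters amino acids such as glutamine and asparagine. A leaf that grows from young to mature also builds its photosynthetic apparatus, its cell walls and its transport routes, and later exports nitrogen.

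Total counts per library ran from 13838820 to 15390848 at S1 and from 14219119 to 16539932 at S3. Leaf mesophyll markers, 47 of 61 matched genes tested, summed to between 36821 and 47375 FPKM at S1 and between 38129 and 43452 FPKM at S3. None of the 3 matched genes for Casparian strip proteins, which mark root endodermis, passed the filter on low counts. The libraries of a group were not equally alike. Over 20292 genes, log2 counts scaled to library size of MN S3 A correlated at 0.897 with MN S1 A, against 0.851 and 0.847 with MN S3 B and C. MN S1 B and C correlated at 0.950, above every other pair of the 6, yet differed by more than sampling noise. Single genes were tested by models fitted across all genes, because with 3 libraries in each group the smallest p of an exact permutation test is 0.1.

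How many genes differed between 24 and 48 DAT depended on the tool. Of 58645 genes in the files, 21954 had enough counts for edgeR, whose quasi-likelihood test called none of them, that is 0%. A call needed an adjusted p (Benjamini-Hochberg) under 0.05 together with a log2 fold change of 1 or more in size. The smallest adjusted p of edgeR was 0.146, and 1809 genes, 8.24%, had an unadjusted p below 0.05, 1045 higher and 764 lower at S3. The replicate spread was wide, with a biological coefficient of variation of 0.577. DESeq2, the tool the study used, called 749 of 26075 genes with an adjusted p, or 2.87%, at the same thresholds: 489 were higher at S3 and 260 lower. Of these, 571 (2.6% of 21954) had passed edgeR's filter, 376 higher (1.71% of the tested genes) and 195 lower (0.888%), and each had an unadjusted edgeR p below 0.05 in the same direction. The S1 and S3 libraries did not overlap in 346 of the higher and 179 of the lower genes, beside 7.98% and 6.94% of all tested genes that lay apart in these directions. An edgeR fit of all 27 libraries called 14 genes, or 0.049% of 28593. Across all tested genes the median log2 fold change was 0.00.

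Genes are called higher or lower below only by DESeq2, and fold changes with their standard error (SE) are edgeR's, on the log2 scale, unless stated. All FPKM values (fragments scaled to gene length and library size, as deposited) are given for libraries A, B and C in that order. The number of DESeq2 calls moved with the libraries. It was 1470 without MN S3 A and 1257 without MN S1 A, and it was 340 without MN S1 B and 437 without MN S1 C. A core of 180 genes was called with all libraries and again in each of the 6 fits that left a library out, and 172 of them, 129 higher and 43 lower, had passed edgeR's filter. Those genes are marked below as called in every leave-out.

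**Figure D1:**
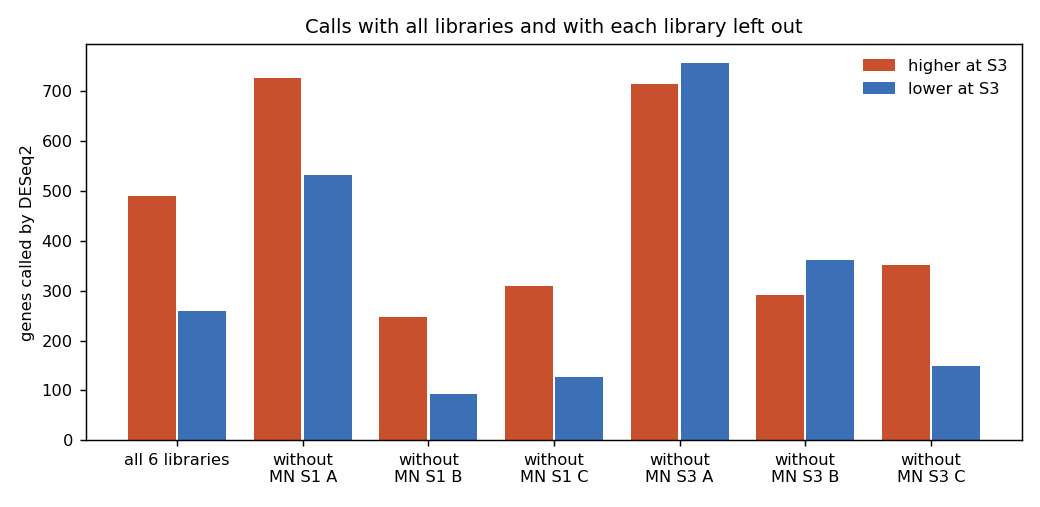
Number of genes called by DESeq2 (y axis) as higher or lower at S3, with all 6 MN libraries and with each library left out (x axis). Counts range from 340 without MN S1 B to 1470 without MN S3 A, beside 749 with all 6 libraries.

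The MN S2 libraries, which took no part in the test, were set beside the called genes as a description, since the genes were chosen on S1 and S3 values. Of the 376 higher genes, 243 had an S2 mean between the S1 and S3 means, 86 at or above the S3 mean and 47 at or below the S1 mean. Of the 195 lower genes, 91 lay between, 82 were at or below the S3 mean at S2, and 22 were at or above the S1 mean.

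The called genes were spread over many functional lists, which were formed from the Swiss-Prot matches in the files. Among 26 tested structural flavonoid genes 0 were higher and 3 lower, and among 64 MYB transcription factors 1 was higher and 7 lower. In other lists 4 of 43 light-harvesting antenna genes, 8 of 98 UDP-glycosyltransferases and 4 of 70 nitrate and peptide transporters were higher. So were 5 of 46 cellulose synthase family genes and 4 of 21 aquaporins. Of these lists only the UDP-glycosyltransferases had a lower member, 1 gene. The background shares were 1.71% higher and 0.888% lower. Apart from cell type markers and transcription factor families, median log2 fold changes of these functional lists lay between -0.62 for wall loosening genes and 0.51 for the antenna, beside 0.00 for all genes. Another 6 lists, flavan-3-ols, PHOSPHATE-INDUCED 1 proteins, gibberellin synthesis, sulfate, glutaredoxins and secondary wall, were formed after values had been seen and are descriptions only. Lower structural flavonoid genes ranged from 1 without MN S1 C to 7 without MN S3 B, and higher cellulose synthase genes from 1 without MN S1 C to 8 without MN S1 A.

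**Figure D2:**
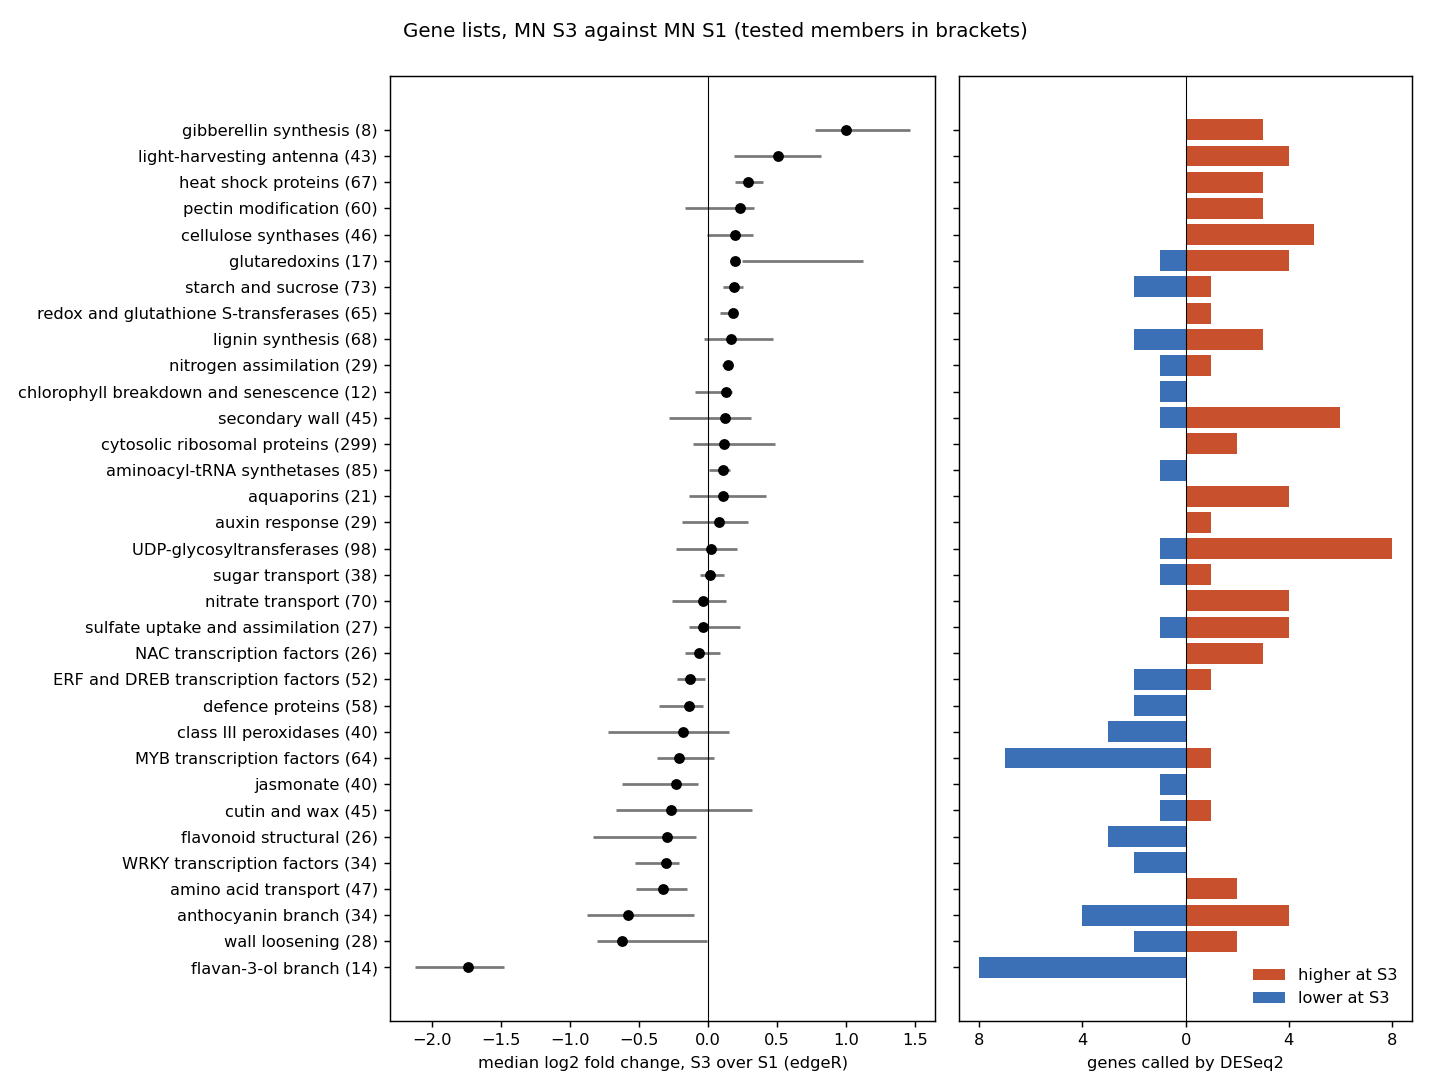
Left, median log2 fold change of S3 over S1 for each gene list (points, edgeR) with the lowest and highest median when each library was left out (lines, which for glutaredoxins start above the point); right, number of list members called by DESeq2 as higher or lower. Lists without a call and the PHOSPHATE-INDUCED 1 list (median -6.68) are not drawn. Of the lists drawn, the flavan-3-ol branch, formed after values were seen, lies farthest to the left, with 8 lower genes and a median of -1.74.

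Of 14 tested genes of the flavan-3-ol route, 8 were lower at S3, beside 0.888% of all tested genes. This list was formed after values were seen. Flavan-3-ols arise when leucoanthocyanidin reductase (LAR) or anthocyanidin reductase (ANR) draws on intermediates of the anthocyanin pathway, and in Arabidopsis MYB123 (TT2), WRKY44 (TTG2) and the vacuolar carrier DETOXIFICATION 41 (TT12) belong to the same route. None of the 14 was higher, 12 had a negative fold change and 2 a positive one, and the median was -1.74. The number of lower genes was 2 without MN S1 C, 4 without MN S1 A, 5 without MN S3 C, 7 without MN S1 B or MN S3 A and 9 without MN S3 B, and the list median stayed between -2.12 and -1.48.

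LAR (Ebr02G039640, chr2:341581431-341584124) was at 201, 145 and 124 FPKM at S1, 27, 8.35 and 29.5 at S2, then 39.9, 55.6 and 48.3 at S3. The S1 and S3 libraries did not overlap, and each S2 library was below each S3 library. The log2 fold change -1.71 ± 0.27 corresponded to a 3.26-fold lower level by DESeq2, with DESeq2 adjusted p = 8.11e-05, and the gene was called in every leave-out. ANR (Ebr03G023120, chr3:180009924-180012329) was at 1221, 669 and 1554 FPKM at S1 and 202, 307 and 52.9 at S3. The groups did not overlap, though MN S3 C was far below A and B. Its log2 fold change -2.61 ± 0.67 had a DESeq2 adjusted p = 0.0024, which was 0.0734 without MN S1 C.

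Chalcone synthase, which makes the first flavonoid skeleton, is present in several copies. The copy matched to chalcone synthase 2 of tea (Ebr01G026640, chr1:230460285-230461960) stood at 6809, 5112 and 8373 FPKM at S1, 1672, 370.5 and 849.9 at S2, then 1419, 1647 and 858 at S3. All S3 libraries were below all S1 libraries, with a log2 fold change -2.37 ± 0.39 and a DESeq2 adjusted p = 3.89e-07, and the call held in every leave-out. Flavonoid 3'-monooxygenase (Ebr03G047030), which adds the hydroxyl group of cyanidin-type compounds, went from 139, 115 and 268 FPKM to 23.3, 55.6 and 12, a log2 fold change -2.52 ± 0.63 (DESeq2 adjusted p = 0.00282; 0.0926 without MN S1 C).

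Dihydroflavonol 4-reductase (Ebr02G029770), which opens the branch to anthocyanins and flavan-3-ols, was at 716, 443 and 591 FPKM at S1 and 188, 241 and 81.1 at S3, without overlap. Its log2 fold change -1.77 ± 0.44 had a DESeq2 adjusted p = 0.00948, and 0.0784 without MN S1 C. Leucoanthocyanidin dioxygenase (Ebr05G052940), the next enzyme, was at 101, 84.4 and 301 FPKM and then at 17.5, 50.5 and 2.6. These groups did not overlap either, with a DESeq2 adjusted p = 0.041 over all 6 libraries. Of the leave-outs only that without MN S3 B kept the call (DESeq2 adjusted p = 0.000326), and the DESeq2 adjusted p was highest, 0.503, without MN S1 C.

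Regulators and a carrier of the route were among the 8. MYB123 (Ebr05G065900, chr5:482172724-482173927) was at 42.8, 26.2 and 75.9 FPKM at S1 and 1.7, 4.63 and 0.251 at S3, where all libraries were below all S1 libraries. Among the 8 lower genes this was the steepest change, 22-fold by DESeq2 (log2 fold change -4.45 ± 0.94; DESeq2 adjusted p = 1.67e-05), and it was called in every leave-out. WRKY44 (Ebr01G049420) went from 42.1, 22.1 and 27.7 FPKM to 10.8, 9.24 and 3.29, with a DESeq2 adjusted p = 0.00983, which was 0.0565 without MN S1 A and 0.0635 without MN S1 C. MYB5 (Ebr01G039880) and DETOXIFICATION 41 (Ebr03G032420) had DESeq2 adjusted p of 0.0253 and 0.0233, but MYB5 was called in 1 of the 6 leave-outs, that without MN S1 B, and DETOXIFICATION 41 in 2, those without MN S1 B or MN S3 B. Their highest DESeq2 adjusted p, both without MN S1 C, were 0.164 and 0.229. Plasma membrane-type ATPase 10 (Ebr02G028780) is not in the list, and its Arabidopsis relative AHA10 acidifies the vacuole of tannin-making seed coat cells. The ATPase gene was at 75.9, 62.8 and 86.3 FPKM and then at 19.2, 23.5 and 11.7. The groups were apart, with a log2 fold change -2.04 ± 0.32 (DESeq2 adjusted p = 1.61e-05), and the call held in every leave-out.

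**Figure D3:**
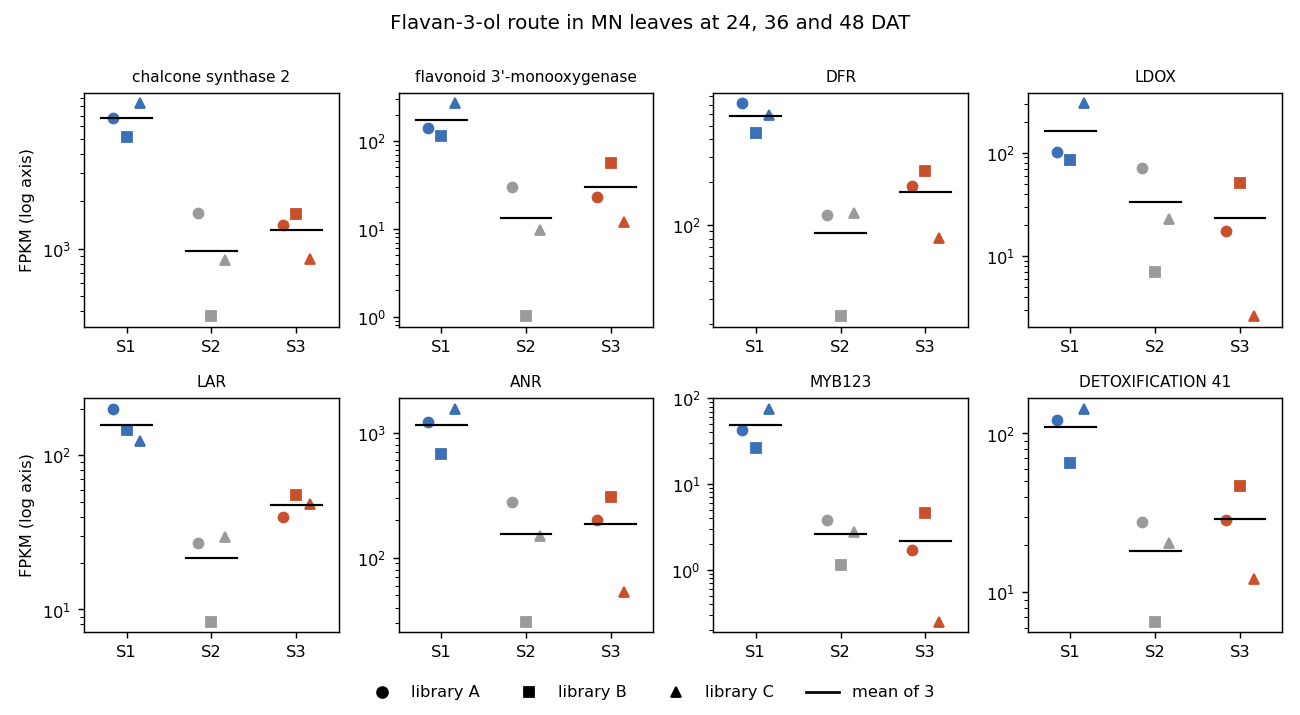
FPKM on a log axis (y) of 8 genes of the flavan-3-ol route in the MN libraries at S1, S2 and S3 (x); symbols mark libraries A, B and C and bars the mean of 3. These are not the 8 lower genes of the list, since chalcone synthase and the flavonoid monooxygenase are drawn and WRKY44 and MYB5 are not. In each panel the 3 S3 libraries lie below the 3 S1 libraries, and MN S2 B is the lowest S2 library.

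In LN and HN the route also had lower values at S3 than at S1. The median log2 fold change of the 14 genes was -1.45 in LN and -2.93 in HN, where all 14 were tested too. ANR went from 572 ± 261 to 60.1 ± 10.8 FPKM in LN (mean ± SD, n = 3) and from 1181 ± 368 to 108 ± 3.91 FPKM in HN, where edgeR called it (edgeR adjusted p = 0.014). For the 8 lower genes the difference between the MN and the LN change had edgeR adjusted p of 0.718 or more, and that between the MN and the HN change 0.409 or more. These p-values do not show that the changes were alike.

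The study names a number of genes around icariin-type flavonoids, from phenylalanine ammonia-lyase and chalcone synthases to prenyltransferases, glycosyltransferases and MYB factors. In a list of 12 of them 11 were not called. Another 2 glycosyltransferases from the study's gene networks, described below, were called, and they were picked after their values were seen. EpF3H (Ebr04G062950), flavanone 3-hydroxylase, was at 929.7, 539 and 988 FPKM at S1 and 203, 1015 and 447 at S3, and EpFLS3 (Ebr04G051790), flavonol synthase, at 62, 167 and 153 and 92, 638 and 222. In both genes MN S3 B was the highest of the 6 libraries and the groups overlapped. EpCHS2 (Ebr05G049130) was at 296, 333 and 493 FPKM and then at 82.2, 821 and 196, a log2 fold change -0.02 ± 0.77 whose sign changed when MN S1 C, MN S3 A or MN S3 C was left out. The prenyltransferase EpPT8 (Ebr02G069700), matched to an enzyme that prenylates naringenin, was at 100.004, 116 and 75.5 FPKM and then at 68.4, 298 and 169 (log2 fold change 0.88 ± 0.51). EpPT5, EpCHS5, EpF3'5'H1, EpPAL2, EpUGT13_A, MYB1 and MYB12 also overlapped between the groups, with DESeq2 adjusted p from 0.401 to 0.975.

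The called gene of the 12 was EpUGT16_A (Ebr06G040830), a UDP-glycosyltransferase matched to an anthocyanidin-glucoside rhamnosyltransferase. It stood at 31.4, 58.1 and 41.8 FPKM at S1, 102, 99.1 and 236 at S2, then 47.9, 492 and 249 at S3, so MN S3 A lay within the S1 range. DESeq2 gave an adjusted p = 0.0111, and the gene was called in only 1 of the 6 leave-outs, that without MN S3 A, with a DESeq2 adjusted p of up to 0.175, without MN S3 B. The study's networks name further glycosyltransferases, and 2 of them, picked here after their values were seen, were higher as well. EpUGT13_A, in the same networks, was not called, and another one that the study names is not described here. Ebr06G045440, matched to a xylosyltransferase of cyanidin galactoside, was at 2.64, 0.903 and 1.18 FPKM and then at 4.53, 35.4 and 32.7, and Ebr06G044290, matched to a glucosyltransferase of anthocyanidin glucosides, at 0.259, 1.28 and 1.12 and 0.477, 53.2 and 47.5. Both were called in every leave-out (DESeq2 adjusted p = 4.96e-05 and 0.000798), although MN S3 A of the latter lay within the S1 range. UDP-glycosyltransferase 90A1 (Ebr02G047440), another enzyme of this family, went from 2.95, 2.02 and 0.717 FPKM to 10.5, 15.1 and 12.7 and was also called in every leave-out (DESeq2 adjusted p = 0.000268). The number of higher UDP-glycosyltransferases ranged from 3 without MN S1 B to 11 without MN S1 A.

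A group of genes that lie mostly within a stretch of chromosome 3 was expressed at S1 and at or near 0 in most S3 libraries. They match tobacco PHOSPHATE-INDUCED 1, a secreted protein of the EXORDIUM family, whose Arabidopsis members are tied to cell expansion. Of 24 matched genes, 8 passed edgeR's filter and were called lower by DESeq2, and 1 more was called outside the filter. With such low S3 values a member could pass the filter mainly through S1, and the list was formed after values were seen, so this count follows from the choice of genes. The number of lower members ranged from 6 without MN S1 A to 8 without MN S3 A or B. Of the 8 genes, 7 lie between 412483649 and 414649293 on chromosome 3, and the other (Ebr03G043560) lies at chromosome 3, 353713626 to 353714555. Neighbouring copies may share reads, so how counts were divided among them is uncertain.

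Ebr03G051010 (chr3:413046400-413047601) was at 75.3, 20.3 and 13 FPKM at S1, 1.49, 81.2 and 2.51 at S2, then 0.338, 0.773 and 0.399 at S3. Its S1 libraries spanned a wide range but all lay above S3, and MN S2 B alone among the S2 libraries was as high as MN S1 A. The fold was 71.9 by DESeq2 (DESeq2 adjusted p = 5.44e-13), and the gene was called in every leave-out. Ebr03G050850 was at 75.1, 17 and 4.93 FPKM and then 0.546, 0.763 and 0.0626 (DESeq2 adjusted p = 3.63e-07), also called in every leave-out. Ebr03G043560, away from the cluster, was at 120.1, 31.7 and 16.9 FPKM and then 0.187, 9.2 and 1.09, and its call (DESeq2 adjusted p = 0.0125) was lost without MN S1 A, MN S1 B or MN S3 C, with a highest adjusted p of 0.481. The S1 spread was common to all 8, with MN S1 A the highest library. Ebr03G051080 had counts of 110, 33 and 34 at S1 and none in any S3 library, at least 23.3-fold lower if a library at 0 is given 3 counts.

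**Figure D4:**
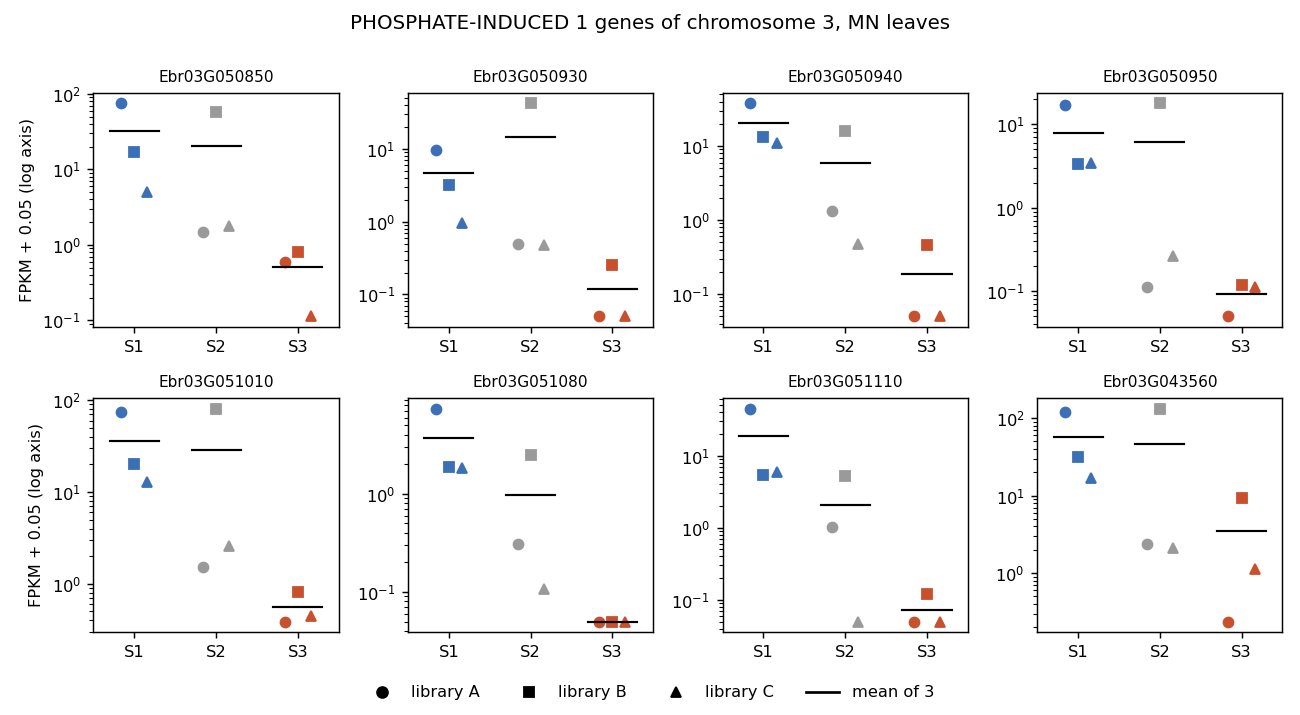
FPKM + 0.05 on a log axis (y) of the 8 tested PHOSPHATE-INDUCED 1 genes in the MN libraries at S1, S2 and S3 (x); symbols mark libraries A, B and C and bars the mean of 3. All S3 libraries lie below all S1 libraries, and MN S2 B lies above MN S2 A and C in every panel.

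At S1 the means of these genes in LN and HN were at or below 2.94 FPKM. Ebr03G051010 averaged 36.2 ± 34.1 FPKM in MN S1, 0.384 ± 0.617 in LN S1 and was at 0 in HN S1 (mean ± SD, n = 3). At S2 its means were 44.4 ± 17.6 in LN and 12.8 ± 15.6 in HN, and at S3 0.315 ± 0.546 and 1.49 ± 1.06. The difference between the MN and the HN change had a DESeq2 adjusted p of 1.4e-11 but an edgeR adjusted p of 0.0634.

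Some genes matched to nitrite reduction, nitrate or peptide transport and sulfate use were among those higher at S3. Ferredoxin-nitrite reductase (Ebr04G050620, chr4:396976706-396979708), the plastid enzyme that turns nitrite into ammonium, was at 12, 6.0 and 4.34 FPKM at S1, 42.7, 41.7 and 28.1 at S2, then 29, 27.1 and 35.9 at S3. All S2 and S3 libraries exceeded all S1 libraries, and the log2 fold change 2.05 ± 0.40 corresponded to a 4.15-fold higher level (DESeq2 adjusted p = 0.00101), called in every leave-out. In LN its means were 29.8 ± 5.05 at S1 and 9.9 ± 3.29 FPKM at S3, the opposite order, and in HN 35.2 ± 15.9 and 74.1 ± 50.7 (mean ± SD, n = 3). The MN change minus the LN change had a DESeq2 adjusted p of 1.27e-06 and an edgeR adjusted p of 0.0996.

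Among 70 tested nitrate and peptide transporters 4 were higher and 0 lower, and the list median was -0.04. Protein NRT1/PTR FAMILY 3.1 (Ebr0G011500), of the nitrate and peptide transporter family, was at 14.1, 14.2 and 5.93 FPKM at S1 and 31.8, 47.9 and 43 at S3, without overlap. It was called in every leave-out (DESeq2 adjusted p = 0.00286). Ebr06G024940, a probable peptide/nitrate transporter, went from 1.99, 3.35 and 1.91 FPKM to 8.92, 6.59 and 13 (DESeq2 adjusted p = 0.00983; 0.0681 without MN S1 C and 0.10 without MN S3 C). The number of higher transporters was 1 without MN S1 C and 8 without MN S1 A.

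Asparagine synthetase (Ebr01G067880), which forms the main nitrogen transport amide, was lower. It was at 14.5, 45.3 and 32.5 FPKM at S1, 0.385, 1.04 and 2.05 at S2, then 9.36, 3.46 and 3.26 at S3, so the S2 libraries were the lowest and MN S3 A lay nearest to S1. The log2 fold change -2.52 ± 0.58 had a DESeq2 adjusted p = 0.00226, and 0.0995 without MN S1 B. In HN the same gene was higher at S3, with means of 3.77 ± 1.13 and 129.6 ± 89.9 FPKM (edgeR adjusted p = 0.0326), and in LN the means were 4.91 ± 4.16 and 139 ± 235 FPKM with a wide spread (mean ± SD, n = 3). The MN change minus the HN change had an adjusted p of 1.13e-11 by DESeq2 and 0.0634 by edgeR, and against LN 0.0648 and 0.548.

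In the sulfate list, formed after values were seen, 4 of 27 tested genes were higher and 1 lower, with a median of -0.04. Of all tested genes 1.71% were higher and 0.888% lower. The transporter matched to sulfate transporter 3.3 (Ebr01G032660) was at 2.33, 3.98 and 5.07 FPKM and then at 22, 12.6 and 10.8, and was called in every leave-out (DESeq2 adjusted p = 0.00305). Serine acetyltransferase (Ebr03G005680), which supplies the carbon skeleton of cysteine, went from 3.11, 0.995 and 1.34 FPKM to 12.4, 8.11 and 6.83, without overlap (DESeq2 adjusted p = 0.00898; 0.0803 without MN S1 B, 0.0812 without MN S1 C and 0.0655 without MN S3 A). ATP sulfurylase (Ebr01G019880), which activates sulfate, was the lower member, at 135, 129 and 159.9 and then 69.3, 70.4 and 34.2 FPKM (DESeq2 adjusted p = 0.0349), a call that was lost without MN S1 B or C (DESeq2 adjusted p = 0.145 and 0.196). Fewest sulfate genes were higher, 1, when MN S1 B was left out.

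Glutaredoxins, small thiol proteins that use glutathione, had 4 higher and 1 lower members among 17 tested, in a list formed after values were seen. Background shares were 1.71% higher and 0.888% lower. The monothiol glutaredoxin matched to rice S6 (Ebr06G004590, chr6:29933643-29992060) had counts of 0, 1 and 2 at S1 and 180, 170 and 346 at S3, or 0, 0.0785 and 0.15 and 12.6, 13.6 and 25 FPKM. It had the smallest edgeR p of the tested genes higher at S3 (unadjusted p = 2.56e-05, edgeR adjusted p = 0.146) and was called by DESeq2 in every leave-out. Its means were 7.19 ± 1.47 and 19.6 ± 3.33 FPKM in LN and 0.0603 ± 0.0526 and 6.81 ± 3.05 in HN at S1 and S3 (mean ± SD, n = 3). Higher glutaredoxins numbered 1 without MN S1 B and 2 without MN S1 C or MN S3 A.

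**Figure D5:**
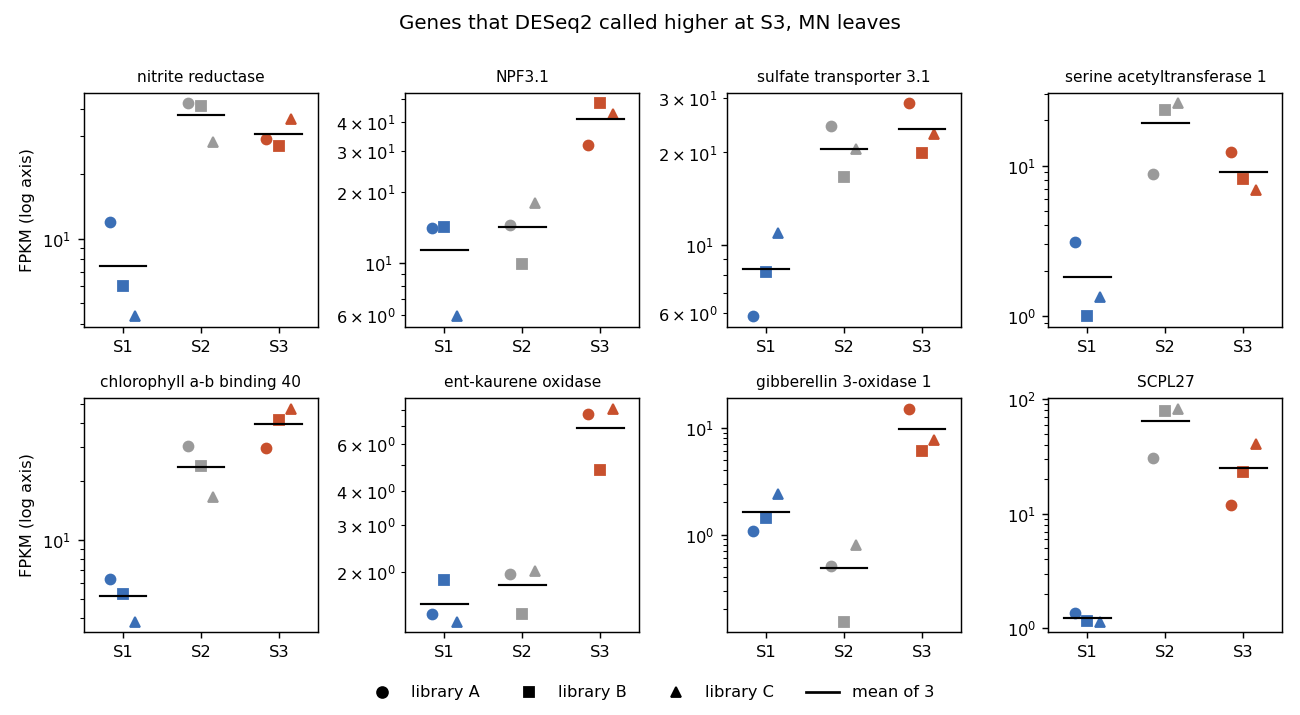
FPKM on a log axis (y) of 8 genes that DESeq2 called higher at S3, in the MN libraries at S1, S2 and S3 (x); symbols mark libraries A, B and C and bars the mean of 3. In each panel the 3 S3 libraries lie above the 3 S1 libraries, while gibberellin 3-oxidase 1 is lower at S2 than at either stage.

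Among the photosynthetic lists, calls fell in the light-harvesting antenna. Of 43 tested chlorophyll a-b binding proteins, which gather light for the photosystems, 4 were higher and none lower, with a median of 0.51 that stayed between 0.19 and 0.82 with a library left out. The summed level of the list did not follow this, at 31881 to 43002 FPKM at S1, 57611 to 60737 at S2 and 32302 to 34241 at S3. The clearest was Ebr02G017360 (chr2:138177766-138186676), at 6.32, 5.3 and 3.83 FPKM and then 29.5, 41.1 and 47.2, a log2 fold change 2.93 ± 0.32 with a DESeq2 adjusted p = 3.04e-10, called in every leave-out. In HN this gene went from 80.2 ± 52 to 16.1 ± 2.54 FPKM (mean ± SD, n = 3), and the difference of the changes had an adjusted p of 4.83e-12 by DESeq2 and 0.0614 by edgeR. The number of higher antenna genes was 13 without MN S1 A and 2 without MN S1 B, MN S3 B or MN S3 C.

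No gene was called among 14 photosystem and electron transport genes, 27 Calvin cycle genes, 27 chlorophyll synthesis genes and 108 plastid ribosomal proteins. Their medians were -0.28, 0.08, 0.14 and 0.10. Among genes for chlorophyll breakdown and senescence, 1 of 12 was lower, chlorophyllase (Ebr02G013030), at 547, 1152 and 623 FPKM and then 278, 13.5 and 50.7 (DESeq2 adjusted p = 0.0406), and it was called in 1 of 6 leave-outs, that without MN S3 A, with a highest DESeq2 adjusted p of 0.427 without MN S1 B. No autophagy gene of 21 was called. Plastid lipid-associated protein 3 (Ebr04G003650), of the fibrillins that coat plastoglobules, was higher, at 1.78, 0.983 and 1.22 FPKM and then 22.4, 10.1 and 28.4 (DESeq2 adjusted p = 4.39e-10), in every leave-out.

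Hormone genes included members of gibberellin synthesis, a list formed after values were seen. Of its 8 tested genes 3 were higher, beside 1.71% of all tested genes, and none was lower. A positive fold change was found in 7. The list median was 1.0 in MN, 0.44 in LN and 1.21 in HN. Ent-kaurene oxidase (Ebr03G042020), an early step, was at 1.39, 1.86 and 1.31 FPKM at S1 and 7.73, 4.8 and 8.12 at S3. Gibberellin 3-beta-dioxygenase 1 (Ebr02G064840), which makes the active hormone, was at 1.07, 1.42 and 2.41 and 15.1, 6.1 and 7.67 FPKM, with 0.504, 0.154 and 0.793 at S2. Both sets were apart, and both genes were called in every leave-out (DESeq2 adjusted p = 0.00229 and 0.00125). The abscisic acid 8'-hydroxylase CYP707A2 (Ebr04G000950), which inactivates abscisic acid, was lower, at 42.2, 68.4 and 67.2 FPKM and then 7.41, 12.6 and 4.67 (DESeq2 adjusted p = 4.59e-07), and cytochrome P450 78A5 (Ebr03G049840), whose Arabidopsis relative KLUH promotes organ growth, was higher, at 1.47, 0.911 and 1.45 and then 10.2, 7.32 and 12.8 (DESeq2 adjusted p = 4.47e-08). Both were called in every leave-out. Of 29 auxin response genes 1 was higher and none lower, of 40 jasmonate genes 1 was lower and none higher, and no call fell among 33 ethylene genes.

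Transcription factors of the MYB family were mostly lower where they were called, with 1 higher and 7 lower among 64. The 7 include MYB123, which was counted above in the flavan-3-ol list, as was the lower gene MYB5. The MYB list median was -0.21, and it lay between -0.37 and 0.04 with a library left out. MYB73 (Ebr04G072060, chr4:553650318-553651298) was at 212, 116 and 112 FPKM at S1, 58.1, 185 and 43.5 at S2, then 18.6, 22.1 and 16 at S3. Every S3 library was below every S1 library, while MN S2 B was within the S1 range. Its log2 fold change -2.95 ± 0.34 had a DESeq2 adjusted p = 1.03e-10 in all libraries and it was called in every leave-out. The number of lower MYB genes ranged from 2 without MN S1 C to 10 without MN S3 B. Of 26 NAC genes 3 were higher, beside 1.71% of all tested genes. NAC transcription factor 56 (Ebr03G018030) was the clearest, at 0.335, 0.139 and 0.212 FPKM and then 6.6, 2.54 and 3.03 (DESeq2 adjusted p = 7.34e-07). ERF 1A (Ebr04G011510), an ethylene-responsive regulator, was lower, at 51.5, 39 and 43.6 FPKM and then 8.78, 17.9 and 5.92 (DESeq2 adjusted p = 0.00275), with MN S2 B at the top of all 9 libraries. Both were called in every leave-out. FCS-like zinc finger 2 (Ebr04G008800), of a family that binds the energy-sensing kinase SnRK1, went from 129.7, 80.6 and 99.5 FPKM to 23, 19.9 and 19.1 (DESeq2 adjusted p = 4.97e-08), also in every leave-out. The Dof family, singled out by its values, had no call but 20 of 21 tested members positive, beside 50.2% of all tested genes. Its median was 0.69 (0.63 to 0.74 with a library left out). Between libraries of a group the median level of the family had an SD of 0.62. In LN and HN its median fold changes were 0.49 and 0.73.

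Cell wall genes moved in both directions. Expansin-A10 (Ebr06G022630), which loosens walls, was at 7.39, 7.4 and 5.92 FPKM and then 27.3, 19.9 and 27.8 (DESeq2 adjusted p = 1.88e-05), whereas a xyloglucan endotransglucosylase (Ebr03G072400), which cuts and rejoins wall polymers, went from 118, 35.4 and 10.5 to 2.28, 3.9 and 3.1 (DESeq2 adjusted p = 1.15e-05). Both were called in every leave-out. Cellulose synthase-like protein G2 (Ebr04G072560) was at 3.74, 2.9 and 1.7 FPKM and then 13, 13 and 12.9 (DESeq2 adjusted p = 9.11e-06), in every leave-out. Class III peroxidases had 3 lower and 0 higher members of 40, where 0.888% of all tested genes were lower. Among the lower ones was peroxidase 4 (Ebr01G072460), at 25, 144 and 181 FPKM and then 14.8, 13.2 and 2.83 (DESeq2 adjusted p = 0.000545), called in every leave-out. Lower peroxidases ranged from 2 without MN S1 B or C to 6 without MN S3 A or B.

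Among 45 tested secondary wall genes, in a list formed after values were seen, 6 were higher and 1 lower. Background shares were 1.71% and 0.888%. Glucuronoxylan glucuronosyltransferase IRX7 (Ebr01G057770), which builds xylan, was at 0.477, 0.276 and 0.188 FPKM at S1, 3.8, 115 and 47.1 at S2, then 4.11, 14.6 and 5.37 at S3, and was called in every leave-out (DESeq2 adjusted p = 8.93e-08). Fasciclin-like arabinogalactan protein 11 (Ebr01G052080) was at 2.4, 0.558 and 1.06, 9.8, 873 and 171 and 17.4, 50.5 and 0.513 FPKM in the same order, so MN S3 C lay below S1 and MN S2 B far above all. Its DESeq2 adjusted p = 0.0119 was 0.190 without MN S1 B, 0.136 without MN S1 C and 0.345 without MN S3 B. Xylem markers, of which 4 of 36 matched genes were tested, summed to 3.24, 6.03 and 8.63 FPKM at S1, to 20.8, 794 and 233 at S2, then to 17.6, 69.1 and 2.66 at S3. The part of vascular tissue in these values was not tested, and more xylem cells and more RNA per cell cannot be told apart in whole leaves. Higher secondary wall genes numbered 2 without MN S1 B or MN S3 B and 7 without MN S3 A.

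Transport and protein quality genes completed the higher set. Aquaporin NIP3-1 (Ebr03G042100), of the channels for water and small solutes, was at 0.385, 0.996 and 0.266 FPKM and then 3.41, 4.38 and 5.9, and lysine histidine transporter-like 6 (Ebr02G040190), an amino acid carrier, at 4.79, 6.54 and 9.12 and then 23, 30.04 and 23.7. Higher aquaporins numbered 3 to 5 with a library left out. The mitochondrial chaperone ClpB3 (Ebr02G070440), which pulls apart protein aggregates, was at 0.0233, 0.0579 and 0.0736 FPKM and then 1.43, 1.34 and 1.6. These 3 genes were called in every leave-out (DESeq2 adjusted p = 0.00101, 0.000226 and 1.39e-06). Of 67 heat shock proteins 3 were higher, beside 1.71% of all tested genes, and none lower, with a median of 0.29.

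The DESeq2 gene with the smallest adjusted p of all, 4.32e-14, was serine carboxypeptidase-like 27 (Ebr02G015920, chr2:127940329-127947453). It stood at 1.36, 1.16 and 1.15 FPKM at S1, 30.8, 79.1 and 82.8 at S2, then 12, 23.3 and 40.4 at S3, 20.7-fold higher, and edgeR's unadjusted p was 4.4e-05. S1 was low in all 3 libraries and S2 exceeded S3 in means. Others among the 10 higher and 10 lower genes with the smallest p were a heavy metal-associated isoprenylated protein (Ebr01G007620), aluminum-activated malate transporter 9 (Ebr02G040690, a vacuolar anion channel in Arabidopsis), oligopeptide transporter 1 (Ebr03G003660), a CBL-interacting kinase (Ebr05G006530) and serine carboxypeptidase-like 18 (Ebr04G067540). The first was at 1.93, 2.09 and 3.1 FPKM and then 26.7, 13.8 and 17.4. The malate transporter was at 16.9, 15.4 and 18.8 and then 3.92, 4.35 and 2.98, and the other 3 were also lower. These 5 were called in every leave-out, as were 5 genes of the 20 without a Swiss-Prot match. Among these, an assembled gene on chromosome 3, 99309291 to 99322336, was at 25.2, 43 and 38.9 FPKM and then 219, 185 and 209, and an assembled gene on chromosome 2, 190526906 to 190540721, at 357, 300.5 and 242 and then 61.6, 84.6 and 81.5. Genes entered this set only if their groups did not overlap, so that separation is not a result. The function of these assembled genes is unknown.

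Cell division genes (103 tested), histones (66), and clock and photoreceptor genes (41) held no call, with medians of 0.02, 0.08 and 0.09. Cyclin-B1-2 (Ebr05G005550), a driver of mitosis and the list member with the highest mean FPKM, was at 166, 161 and 156 FPKM at S1 and 149, 150.1 and 173 at S3. Markers of dividing cells summed to 3165 to 4160 FPKM at S1 and 3857 to 6220 FPKM at S3. Of 299 cytosolic ribosomal protein genes 2 were higher, with a median of 0.12.

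Each of the other lists held 4 or fewer calls in a direction, so that a share above the background there rests on few genes. Higher and lower calls were 4 and 4 of 34 in the anthocyanin branch, which shares genes with the flavan-3-ol list and the glycosyltransferases, 3 and 2 of 68 in lignin synthesis, 2 and 2 of 28 in wall loosening, 3 and 0 of 60 in pectin modification, and 1 and 1 of 45 in cutin and wax. They were 1 and 1 of 29 in nitrogen assimilation, 2 and 0 of 47 in amino acid transport, 1 and 2 of 73 in starch and sucrose, and 1 and 1 of 38 in sugar transport. Regulators and defence had 0 and 2 of 34 WRKY genes, 1 and 2 of 52 ERF and DREB genes, and 0 and 2 of 58 defence genes. Redox genes had 1 and 0 of 65, aminoacyl-tRNA synthetases 0 and 1 of 85, and the entry to phenylpropanoids 0 and 0 of 15. Phloem markers had 1 higher gene of 13 tested and a median of 0.82, and markers of shoot meristem, guard cell lineage and flower had no call.

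The same interval in LN and HN allowed the MN change to be set beside independent libraries. Of the 376 higher genes, 341 were tested in LN, and 231 of them (67.7%) had a positive fold change there, with a median of 0.54. In HN 182 of 331 (55.0%) were positive, with a median of 0.16. Of the 195 lower genes, 111 of 168 (66.1%) were negative in LN and 105 of 173 (60.7%) in HN, with medians of -0.46 and -0.56. Over all genes tested in both, 54.1% had the same sign in MN and LN and 52.6% in MN and HN. Genes are not independent replicates, so these shares are descriptions.

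The test of the difference itself found little with edgeR. The MN change differed from the LN change in 2 of 24921 genes (0.00803%) and from the HN change in 0 of 25293 (0%), where the smallest edgeR adjusted p was 0.0614 and 3393 genes had an unadjusted p below 0.05. DESeq2 called 298 genes against LN (1.12%) and 855 against HN (3.22%). The number of genes called within a treatment also differed, though not by a test of that difference. For S3 against S1, edgeR called 358 genes higher and 128 lower in HN and 0 in LN, and DESeq2 called 1655 higher and 954 lower in HN and 300 higher and 319 lower in LN.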

How the data were processed

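Leaf RNA was sequenced from E. pubescens at 3 nitrate levels and 3 stages, and 6 of 27 libraries, MN S1 and MN S3, were compared. The authors aligned reads to a published E. pubescens genome with HISAT2 2.0.5, assembled genes with StringTie 1.3.3b and counted reads per gene with featureCounts 1.5.0-p3, and deposited a table of raw counts and a table of FPKM. The name of that build and the strand setting were not stated, and counts of overlapping genes or near copies may be shared. The study describes its replicates as biological, but neither it nor the labels tie a library to single or pooled plants.

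Counts were tested with edgeR 4.0.16 in R 4.3.3 (TMM, filterByExpr, quasi-likelihood test, 6 libraries), and a gene was called when its Benjamini-Hochberg adjusted p was under 0.05 and its log2 fold change was 1 or more in size. DESeq2 1.42.0, as in the study, was an alternative, as were limma 3.58.1 on log2(FPKM + 1), other normalisations, filters and fits, and leaving out each library. Differences between treatments were tested as interactions over 12 libraries without a fold threshold. FPKM values were used for display. A fold against libraries at 0 was set against a floor of 3 counts per library.

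Because edgeR called none, the first named genes were DESeq2 calls that passed edgeR's filter and did not overlap. Of these the 10 per direction with the smallest edgeR p were taken. Further named genes were the study's flavonoid genes, and 2 members per direction of each list that DESeq2 called, or the most expressed member of a list with none. Members of the 6 lists formed after values were seen, and a few others shown beside them, were also named after their values were seen. The comparison and all lists were chosen with earlier results of these data known. Gene names are Swiss-Prot matches from other species in the files.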

Additional observations from a re-analysis of the deposited data

Results flagged for a closer look

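The MN change and the LN change between S1 and S3 differed in 2 genes by edgeR's interaction test, and both belong to the authors' assembly. An assembled gene without a protein match on chromosome 6, 41840602 to 41845330, had MN counts of 0, 0 and 0 at S1 and 144, 133 and 323 at S3, at least 59-fold higher against a floor of 3 counts per library, while its LN means were 1.95 FPKM at S1 and 0 at S3. The fitted difference of the changes was 20.09 on the log2 scale, a value that depends on the prior count because libraries are at 0 (edgeR adjusted p = 0.0491). An assembled gene matched to a LINE-1 retrotransposon protein on chromosome 3, 198151362 to 198193365, had MN counts of 41, 59 and 80 at S1 and 137, 79 and 67 at S3, and LN means of 0 and 1.17 FPKM. Its fitted difference was -9.68 (edgeR adjusted p = 0.0491), with the same dependence on the prior count. Both calls were sensitive to the fit. DESeq2 kept them (DESeq2 adjusted p = 5.61e-18 and 8.37e-08), but edgeR lost them in the 27-library fit (edgeR adjusted p = 0.21 and 0.258) and with a replicate block (0.193 and 0.17). Of the leave-outs, only those without LN S1 C or MN S1 A kept both genes, and in the others the edgeR adjusted p ran from 0.0541 to 0.189.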

How the results depend on the processing

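The count of edgeR calls for MN S3 against S1 was 0. It was 749 with DESeq2, 15 with no filter on low counts (12 higher, 3 lower, smallest edgeR adjusted p 0.0322) and 14 in a fit of all 27 libraries (9 higher, 5 lower). It stayed at 0 with DESeq2's size factors in edgeR, the 9 MN libraries, the robust fit, no fold threshold and limma on log2(FPKM + 1) or log2(FPKM + 0.1). Leaving out each library also gave 0 edgeR calls. DESeq2 gave 340 to 1470 calls when a library was left out, and the 27-library fit 0 to 39. The LN interaction, 2 genes by edgeR, gave 298 by DESeq2 and 0 to 7 with a library left out, and the HN interaction, 0 genes, gave 855 by DESeq2, 24 in the 27-library fit and 0 to 162 with a library left out. The causes were not tested.

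The labels do not say whether the letters A to C mark a shared batch. Deviations of same-letter libraries from their group means correlated at 0.184, 0.16 and 0.0098. Those of libraries with different letters correlated at -0.291 to 0.254. With a replicate block edgeR called 0 genes for MN S3 against S1 and for both interactions, and DESeq2 called 863.

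Of 136 single genes, 129 kept their direction, and 7 reversed it when a library was left out. Over the leave-outs their log2 fold changes ran from -0.81 to 0.82 for Ebr01G074580, -0.25 to 0.32 for Ebr03G056950, -1.48 to 0.13 for EpPAL2 (Ebr04G040710), -0.096 to 0.0021 for Ebr05G005550, -1.44 to 0.45 for EpCHS2 (Ebr05G049130), -0.25 to 0.80 for EpUGT13_A (Ebr06G044210) and -0.19 to 0.31 for Ebr0G018740. List medians moved by more than their replicate spread in 38 cases over all lists and alternatives and did not in 570. Genes without a count in a group were among the calls, as 100 DESeq2 calls had no count in any MN S1 library and 37 none in any MN S3 library. Whether sequencing depth played a part was not tested.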
